A study of Mus musculus with 2 samples.

Results

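Genes of the cell cycle and of DNA replication were examined in iBAT, the interscapular depot of brown adipose tissue, a fat that burns fuel to make heat. The group holds 38 genes chosen by their symbols, and all 38 were found among the 27179 genes of the count tables. They comprise 11 genes of DNA replication, 11 of mitosis and chromosomes, 8 cyclins, 4 cyclin-dependent kinases (CDKs) and 4 CDK inhibitors. RNA was sequenced from untreated 20-day-old mice of the Bl6N (C57BL/6N) background that were either wild-type or Ucp1 knockout (Ucp1-KO). There was 1 library per genotype, with iBAT of 3 animals pooled in each. Ucp1 encodes uncoupling protein 1, the mitochondrial protein through which brown fat releases energy as heat. How the knockout line was made is not given in the sources used here. With 1 library per genotype there is no replicate check, no test and no standard deviation, and each difference below is one between these 2 libraries.

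A cell commits to division when D-type cyclins activate CDK4 and CDK6, which phosphorylate the retinoblastoma protein and so release E2F transcription factors. E2F factors switch on the genes that copy DNA, and a later wave of genes carries the cell through mitosis. CDK inhibitors hold this engine back, and they are abundant in cells that have stopped dividing to differentiate. In the brown fat of young animals, preadipocytes and endothelial cells divide while the depot grows, whereas mature adipocytes rarely do. In a bulk sample, fewer dividing cells and less RNA per cell cannot be told apart.

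The wild-type library held 52950913 counts and the Ucp1-KO library 53216727. Ucp1 itself had 366473 wild-type and 37853 Ucp1-KO counts, which after scaling was 12.7% of the wild-type level. Both pools are described as male, yet the 4 Y-linked genes measured (Ddx3y, Uty, Kdm5d and Eif2s3y) had 491 to 3446 Ucp1-KO counts each and 0 in wild-type, where a count of 0 allows up to 0.113 CPM (counts for each library scaled to an equal total). Xist, the RNA that silences an X chromosome in females, had 32380 wild-type and 16478 Ucp1-KO counts. The effects of sex and of genotype therefore cannot be told apart. Mitochondrially encoded RNA took 22.4% of counts in wild-type against 36.7% in Ucp1-KO, so the main scaling used size factors (median of ratios, 1.11 for wild-type and 0.901 for Ucp1-KO) instead of totals. The log2 ratio is log2((Ucp1-KO + 0.5)/(wild-type + 0.5)) on these normalised counts, given with a 95% counting interval that covers counting error only. Scaling by total counts moved the median over all genes from -0.0016 to -0.31, so a positive ratio smaller than that turns negative with it.

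Promoters of early cell cycle genes are known for E2F sites and those of late genes for another short word. Stretches with such letters were taken from the RefSeq promoter windows (build GRCm38.p6, 250 bases before to 50 after a transcription start). E2F-type words (TTTCCCGC, TTTGGCGC or TTTCGCGC) and the word TTTGAA, known as the cell cycle genes homology region (CHR) of late genes, were searched on both strands. Of these words, TTTGGCGC and TTTCGCGC can overlap across strands. A window was found for 32 of the 38 genes, 37 windows in all. Capitals mark the matches in the stretches below, which lie on the coding strand before the start. Mcm5 and Mcm6 are shown because they encode partners in 1 helicase yet differed in their ratios, and Cdk1 and Cdc20 because they carry the late word.
Mcm5 (chr8:75109332-75109391, plus strand): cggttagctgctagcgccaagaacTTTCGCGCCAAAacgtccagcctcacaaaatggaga
Mcm6 (chr1:128359721-128359839, minus strand): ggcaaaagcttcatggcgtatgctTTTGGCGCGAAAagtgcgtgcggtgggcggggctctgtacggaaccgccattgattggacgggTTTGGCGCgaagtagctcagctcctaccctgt
Cdk1 (chr10:69352913-69353067, minus strand): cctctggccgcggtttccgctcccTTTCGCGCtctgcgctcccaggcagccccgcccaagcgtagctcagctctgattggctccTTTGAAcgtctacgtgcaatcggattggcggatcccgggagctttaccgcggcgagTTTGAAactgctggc
Cdc20 (chr4:118437344-118437385, minus strand): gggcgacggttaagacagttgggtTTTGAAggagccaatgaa

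An E2F-type word stood in 4 of 11 windows of replication genes (Mcm3, Mcm5, Mcm6 and Mcm7), in 2 of 4 windows of CDKs (Cdk1 and Cdk2) and in 0 of 10 windows of mitosis genes. Over all 32851 windows the share was 1.84%. The CHR word stood in 8 of 10 windows of mitosis genes (Aurka, Bub1b, Cdc20, Cenpa, Kif11, Mki67, Plk1 and Top2a), in 1 of 11 of replication genes and in 17.9% of all windows. The 12 bases of Mcm5 in capitals are the reverse complement of the first capitals of Mcm6. These matches describe letters in the windows and no binding was measured.

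Of the 38 genes, 37 had a mean normalised count of at least 10 and were examined. Cdkn2a, which encodes the p16 and p19Arf tumour suppressors, had 0 counts in both libraries. The CDK inhibitor Cdkn1a stood far above the others and held 41.8% of all counts of the group in wild-type and 43.5% in Ucp1-KO. Per kilobase of the canonical GENCODE transcript it had 8354 normalised counts in wild-type, against 1160 for Pcna, 1009 for Ccnd3, 1000 for Cdkn2c and 907 for Cdk4. The lowest levels per kilobase in wild-type were those of Bub1 (5.23), Ccne2 (8.31) and Cdk6 (8.35), with Ccnb1 at 10.7, Cdk1 at 13.6 and the proliferation marker Mki67 at 22.6.

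**Figure D1:**
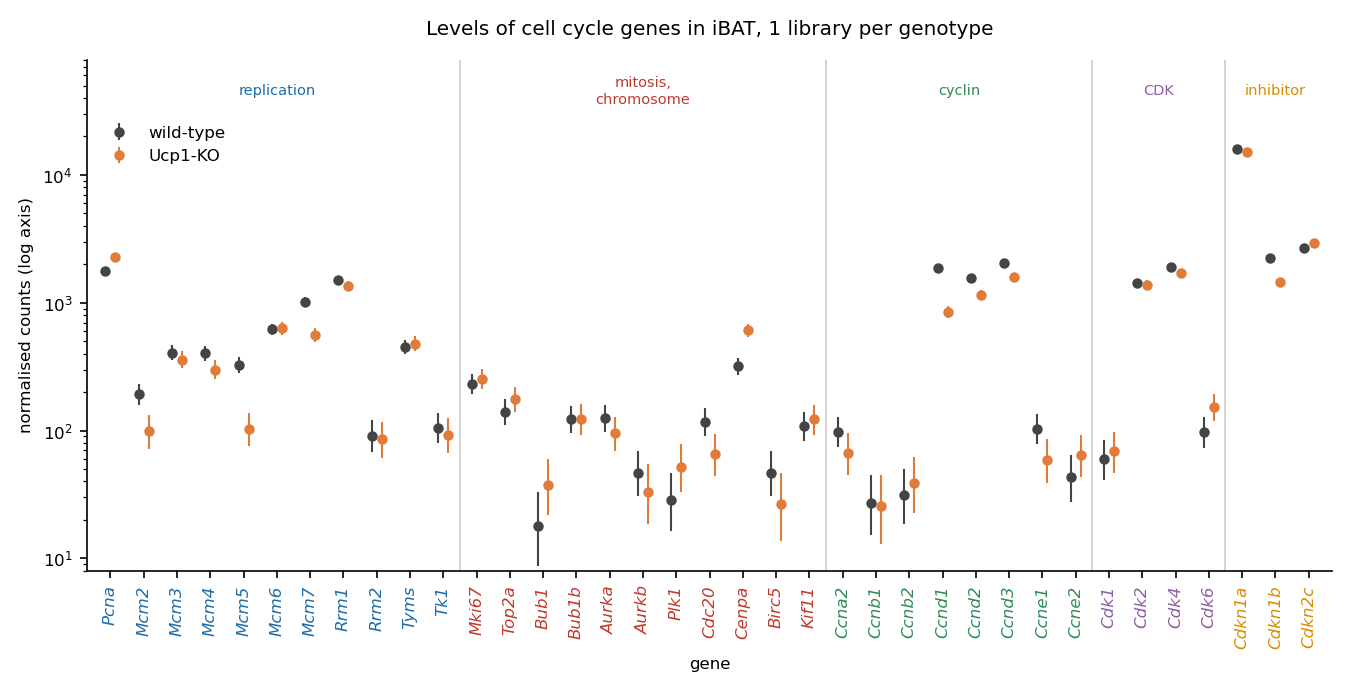
Normalised counts (log axis) of the 37 genes examined, by role, in the wild-type (grey) and the Ucp1-KO library (orange), with 95% Poisson intervals as bars. Cdkn1a is highest at 16065 and 14984, Bub1 lowest in wild-type, and the separated pairs of points include Mcm5, Mcm7, Ccnd1, Cdkn1b and Cenpa.

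Few genes of the group differed by 2-fold. At least 2-fold higher in the Ucp1-KO library was 1 of 37 (Bub1), against 7.42% of the 15212 genes examined, and at least 2-fold lower were 2 of 37 (Mcm5 and Ccnd1), against 9.55%. The counting interval lay above 0 for 4 of 37 (Pcna, Cenpa, Cdk6 and Cdkn2c), against 31.5% of all genes, and below 0 for 12 of 37, or 32.4%, against 30.5%. The median log2 ratio was -0.10 over the 37 genes and -0.0016 over all genes examined. The genes of the group were weaker, with a median mean normalised count of 158 against 696, and weak genes have wide intervals. Among the 16 genes with a mean of at least 300, a split chosen after the values were seen, 8 had an interval below 0 and 3 above, against 33.4% and 38.4% of all genes at such levels. Among the 21 genes below 300, 4 had an interval below 0 and 1 above, against 25.3% and 19.2%.

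**Figure D2:**
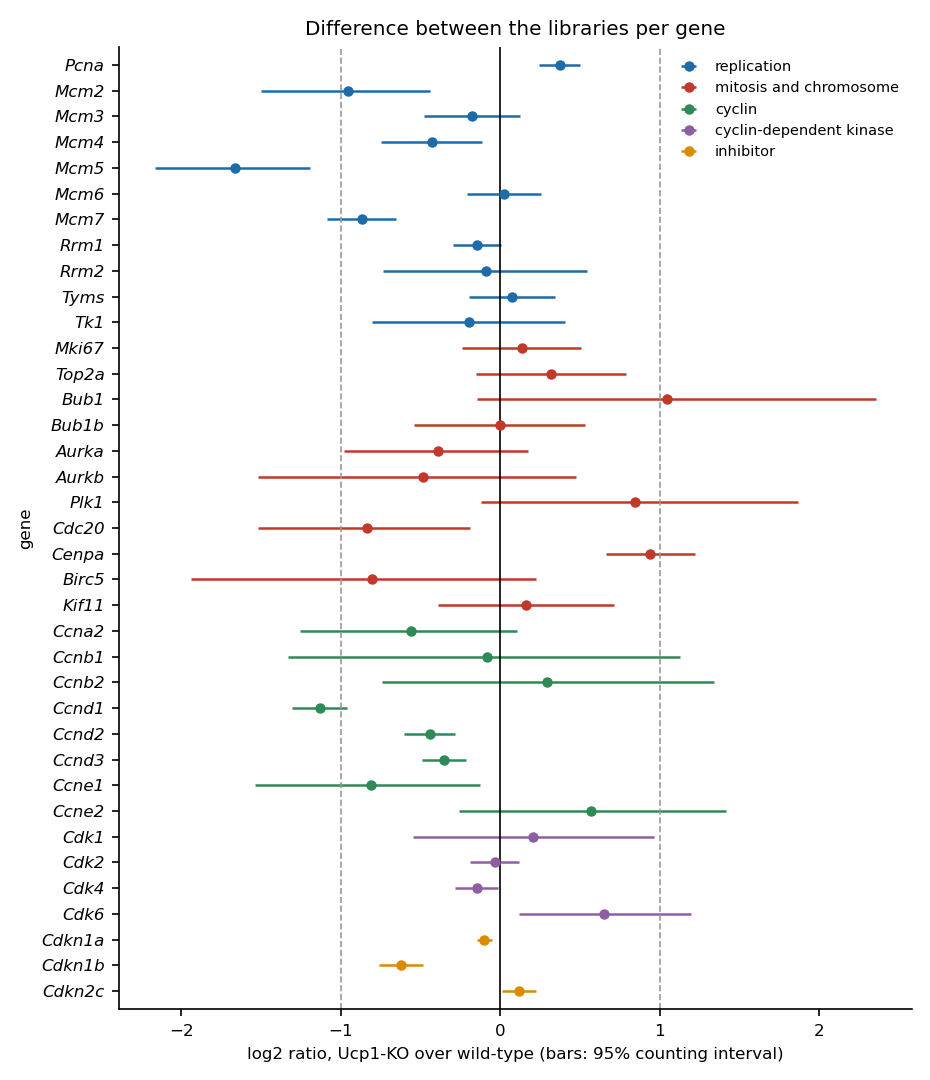
Log2 ratio of Ucp1-KO over wild-type (x axis) for each of the 37 genes, coloured by role, with 95% counting intervals as bars and dashed lines at a 2-fold difference. Mcm5 and Ccnd1 lie beyond the lower line, and Bub1 beyond the upper one with an interval of -0.14 to 2.35.

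Markers of other cells also differed between the libraries. The 12 endothelial markers summed to 2661 CPM in wild-type and 1325 in Ucp1-KO. On normalised counts the Ucp1-KO sum was 61.6% of the wild-type level. The median log2 ratio was -0.81, with 11 intervals below 0 and that of Cldn5 above (0.50, 0.38 to 0.63). Skeletal muscle markers summed to 5587 and 643 CPM, or 14.2% of the wild-type level on normalised counts, with 12 of 12 at least 2-fold lower. Preadipocyte and fibroblast markers had a median of -0.19 (10 of 12 intervals below 0), and the 7 erythroid markers found in the tables one of -0.52 (6 of 7 below 0). Brown adipocyte markers had a median of 0.53 (10 of 12 intervals above 0), and macrophage markers one of 0.19 (4 of 12 at least 2-fold higher), which is smaller than the shift that total counts bring. B and T lymphocyte markers were scarce, and the direction of their sum turned with the scaling, from 305 and 331 normalised counts to 6.38 and 5.60 CPM. Their median was 0.29, with 4 at least 2-fold higher and 2 lower, and Cd3d had 0 counts in Ucp1-KO. The part of these differences in the lower Ccnd1, Mcm and Cdkn1b values was not tested.

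The replication genes form 3 blocks by role. The minichromosome maintenance genes Mcm2 to Mcm7 encode the ring-shaped helicase that unwinds DNA, and 5 of 6 had a negative log2 ratio. Mcm5 (Entrez gene 17218, GRCm39 chromosome 8, 75836140 to 75856231, plus strand) had 363 wild-type and 93 Ucp1-KO counts, or 327 and 103 after scaling. Its log2 ratio of -1.66 (-2.16 to -1.19) was the lowest of the group. Mcm7 (1019 and 558 normalised counts) was at -0.87 (-1.09 to -0.65) and Mcm2 (192 and 98.7) at -0.96 (-1.50 to -0.44). Mcm4 (404 and 300) was at -0.43 (-0.75 to -0.12), so 4 of the 6 subunits had an interval below 0, against 30.5% of all genes. The share was 33.4% of genes with a mean of at least 300 and 25.3% of those below, where Mcm2 and Mcm5 lay. Mcm3, at 407 and 359 normalised counts, had a ratio of -0.18 (-0.48 to 0.12), and Mcm6, at 618 and 629, one of 0.02 (-0.21 to 0.26). Subunits of 1 ring, Mcm5 and Mcm6 with the same E2F-type letters printed above among them, thus ran from 31.5% of the wild-type level to a value within counting error. Total counts gave -1.97 for Mcm5 and -0.28 for Mcm6.

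A share of counts within a gene group does not depend on the scaling between libraries. The shares of a group add up to a whole, so a smaller share of any gene raises those of others. Of all Mcm2 to Mcm7 counts (3292 in the wild-type library, 1846 in Ucp1-KO), Mcm5 took 11.0% in wild-type (exact binomial interval 9.55% to 12.6%) and 5.04% in Ucp1-KO (3.72% to 6.65%). Mcm6 took 20.8% (18.9% to 22.9%) and 30.7% (27.8% to 33.8%), and Mcm7 34.4% (32.1% to 36.7%) and 27.2% (24.4% to 30.2%). For these 3 subunits the intervals of the libraries did not overlap. They overlapped for Mcm2, Mcm3 and Mcm4. The larger share of Mcm6 came with a level within counting error (618 and 629 normalised counts). Such shares were computed only within groups of these genes, so no value over all genes stands beside these overlaps.

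**Figure D3:**
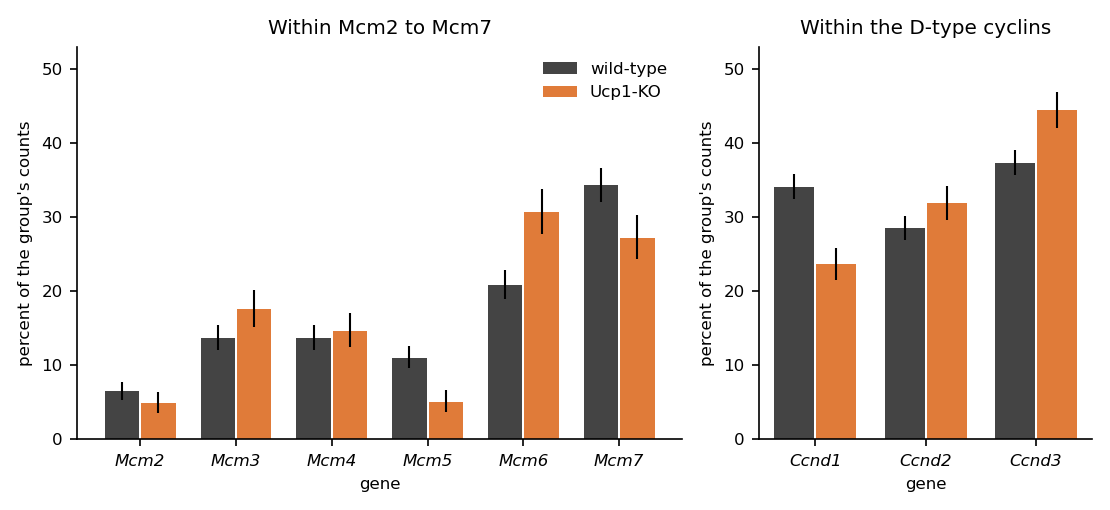
Percent of the counts of Mcm2 to Mcm7 (left) and of the D-type cyclins (right) that each gene took in the wild-type (grey) and the Ucp1-KO library (orange), with exact 95% binomial intervals as bars. Mcm5 and Ccnd1 took a smaller share in Ucp1-KO and Mcm6 and Ccnd3 a larger one. Shares add up to a whole. The larger share of Ccnd3 came with a lower level of that gene, and that of Mcm6 with a level within counting error.

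The enzymes that supply nucleotides formed the second block and stayed within counting error with the main scaling. Rrm1 and Rrm2, the subunits of ribonucleotide reductase, had log2 ratios of -0.15 (-0.30 to 0.01) and -0.09 (-0.74 to 0.54). Rrm1 was at -0.45 with total counts, below its interval here. Thymidylate synthase Tyms was at 0.08 (-0.19 to 0.34), or -0.23 with total counts, and thymidine kinase Tk1 at -0.19 (-0.81 to 0.40). Rrm1 had 1670 and 1227 counts and Tyms 502 and 430, while Rrm2 had 101 and 77 and Tk1 117 and 83. The third block was Pcna, the sliding clamp of DNA polymerase, which went the other way, with 1760 wild-type and 2278 Ucp1-KO normalised counts and a ratio of 0.37 (0.24 to 0.50). With total counts Pcna was at 0.065, and its reads may be shared with the annotated pseudogenes Pcna-ps1 and Pcna-ps2. The 11 replication genes had a median of -0.18.

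Genes of mitosis and chromosomes had no common direction and low counts, with 9 of 11 intervals holding 0. Over all genes 5780 of 15212 intervals held 0, and weak genes such as these have wide intervals. Their summed normalised counts were 1305 in wild-type and 1593 in Ucp1-KO, and the median log2 ratio of the 11 genes was 0.13, or -0.17 with total counts. The proliferation marker Mki67 had 257 wild-type and 229 Ucp1-KO counts, a ratio of 0.13 (-0.24 to 0.51), or -0.17 with total counts. Top2a, the topoisomerase that untangles chromosomes, had 156 and 158 counts (0.32, -0.15 to 0.79). The spindle motor Kif11 (121 and 110 counts) stood at 0.16 (-0.39 to 0.71), or -0.14 with total counts, and the checkpoint kinase gene Bub1b (137 and 111) at -0.0039 (-0.54 to 0.53). For a gene with 200 counts in both libraries together, only a log2 ratio of at least 0.62 above or 0.63 below 0 would have had an interval that leaves out 0.

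In this late group 2 genes stood apart. Cenpa (Entrez gene 12615, GRCm39 chromosome 5, 30824121 to 30842921, plus strand), the histone H3 variant that marks centromeres, had 352 wild-type and 548 Ucp1-KO counts. Its log2 ratio was 0.94 (0.66 to 1.22), or 0.63 with total counts. Cdc20, which activates the anaphase-promoting complex so that chromosomes part, had 130 and 59 counts and a ratio of -0.84 (-1.52 to -0.19). Both carry the CHR word in their windows, so these letters were shared by genes on either side of 0. The remaining kinases and checkpoint genes were measured at few counts. Bub1 had 20 and 34 counts (1.04, -0.14 to 2.35) and Polo-like kinase Plk1 had 32 and 47 (0.84, -0.12 to 1.87). The Aurora kinase genes Aurka (139 and 86 counts) and Aurkb (52 and 30) were at -0.39 (-0.98 to 0.18) and -0.49 (-1.52 to 0.48). Birc5, which encodes the survivin subunit of the Aurora B complex, had 52 and 24 counts and was at -0.80 (-1.94 to 0.22). All 5 intervals held 0, that of Bub1 included.

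Of the 8 cyclins, 4 had an interval below 0, namely the D-type cyclins and Ccne1, and 0 had one above. Over all genes the shares were 30.5% and 31.5%. All 3 D-type cyclins, which receive growth signals in G1, had intervals below 0, against 33.4% of genes with a mean of at least 300. Ccnd1 (Entrez gene 12443, GRCm39 chromosome 7, 144483668 to 144493662, minus strand) had 2062 wild-type and 764 Ucp1-KO counts, or 1859 and 848 after scaling. Its log2 ratio was -1.13 (-1.31 to -0.96). Ccnd2 was at -0.44 (-0.60 to -0.28), from 1556 and 1145 normalised counts, and Ccnd3 at -0.35 (-0.49 to -0.22), from 2037 and 1596. The 3 together had 65.8% of the wild-type level in Ucp1-KO. Ccnd1 also took a smaller part of the D-type counts, 34.1% (32.4% to 35.8%) for wild-type against 23.6% (21.6% to 25.8%) for Ucp1-KO, while Ccnd3 took 37.4% and 44.5% with intervals that did not overlap. Exons of LTO1, on the opposite strand, cover 48.4% of the merged Ccnd1 exons, and whether the counting used strand is not given in the sources used here. Smaller parts of other genes are overlapped in the same way, among them Rrm2 (43.3%), Aurka (25.2%), Pcna (20.8%), Cdk4 (18.8%), Ccna2 (17.5%) and Ccne2 (15.2%). LTO1 had 967 and 670 counts, a ratio of -0.23 (-0.44 to -0.03). Beside these values, the endothelial markers had a median of -0.81, and their part in the lower Ccnd1 was not tested.

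Later cyclins were scarce. Ccne1, a partner of CDK2 at the start of S phase, had 115 and 53 counts and a log2 ratio of -0.81 (-1.54 to -0.13). Its relative Ccne2 had 48 and 58 counts, at 0.57 (-0.26 to 1.42). The A- and B-type cyclins of S phase and mitosis did not differ beyond counting error. Ccna2 (109 and 60 counts) was at -0.56 (-1.26 to 0.11), Ccnb1 at -0.08 (-1.33 to 1.12) and Ccnb2 at 0.30 (-0.74 to 1.34), or -0.0071 with total counts. Ccnb1 and Ccnb2 had 23 to 35 counts in either library, where a gene of 50 counts in sum needs a ratio of 1.26 above or 1.53 below 0 for its interval to leave out 0, and pseudogene copies of both are annotated. Over the 8 cyclins the median was -0.40.

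CDK genes had no common direction. Of the 4 intervals, 1 lay above 0 (Cdk6) and 1 below (Cdk4), where all genes gave 31.5% and 30.5%. Cdk2 had 1417 wild-type and 1385 Ucp1-KO normalised counts, a ratio of -0.03 (-0.19 to 0.12). Cdk4, the kinase partner of the D-type cyclins, had 1888 and 1705 and was at -0.15 (-0.28 to -0.01). Its relative Cdk6 was at 0.65 (0.12 to 1.19), or 0.34 with total counts, from 108 and 138 counts. The mitotic kinase gene Cdk1, whose promoter stretch holds both kinds of word, had 66 and 62 counts and a ratio of 0.21 (-0.55 to 0.96), or -0.10 with total counts. Ccnd1 was thus lower by more than Cdk4, the kinase it activates, with intervals that lay apart. The median of the 4 CDK genes was 0.09, or -0.22 with total counts.

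Among the 3 examined inhibitors of the group Cdkn1b differed most. It lies on GRCm39 chromosome 6 (134897364 to 134902476, plus strand) and encodes p27, which binds cyclin-CDK complexes in resting cells, and it had 2468 wild-type and 1302 Ucp1-KO counts, a log2 ratio of -0.62 (-0.76 to -0.48). Cdkn1a, which encodes p21 and is induced by p53, had 17823 and 13506 counts, or 16065 and 14984 after scaling. Its ratio of -0.10 (-0.15 to -0.05) had a narrow interval at this depth. Cdkn2c, which encodes p18, an inhibitor of CDK4 and CDK6, was at 0.12 (0.01 to 0.23), and total counts turned it to -0.19. Of the summed counts of these 3 inhibitors Cdkn1b took 10.6% in wild-type and 7.46% in Ucp1-KO (6.92% to 8.03%), and Cdkn2c 12.9% (12.2% to 13.5%) and 15.1% (14.4% to 15.9%), with intervals of the libraries that did not overlap for either. Cdkn1a took 76.5% and 77.4%.

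**Figure D4:**
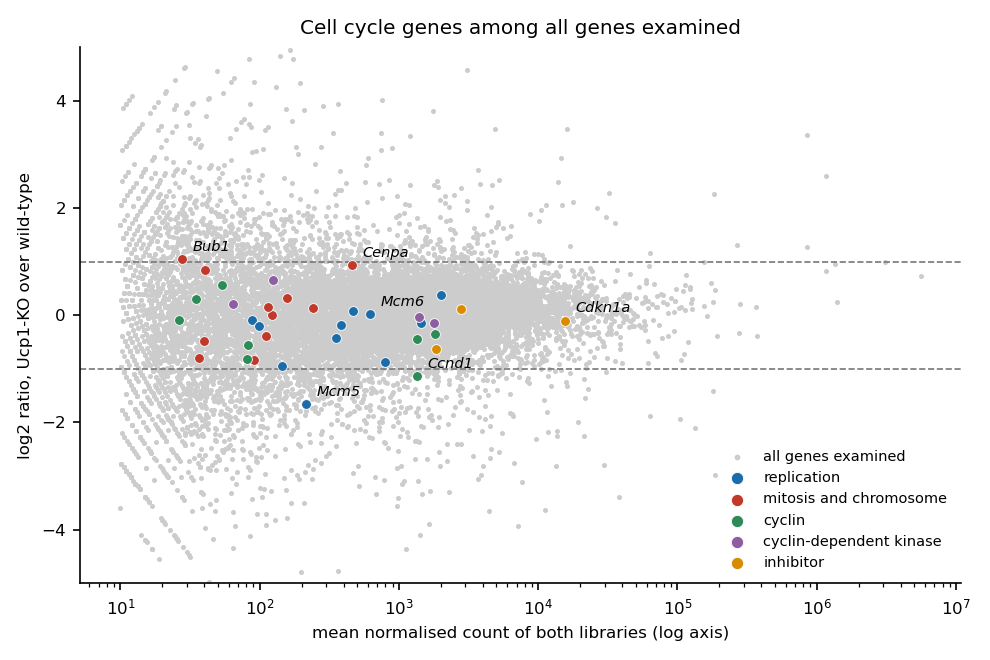
Mean normalised count (x axis, log) against the log2 ratio (y axis) of all 15212 genes examined (grey) and of the cell cycle genes by role (colours), with dashed lines at a 2-fold difference. The 104 genes beyond a log2 ratio of 5 in size lie outside the plot, and the cell cycle genes run from -1.66 for Mcm5 to 1.04 for Bub1.

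A further 122 genes of the same pathways, in 10 lists, also lay on both sides of 0. All were examined, with a median log2 ratio of -0.04. Past 2-fold were 5 higher and 9 lower, where all genes gave 7.42% and 9.55%. The interval lay above 0 for 33 and below 0 for 34, near the shares of 31.5% and 30.5% over all genes. Origin licensing and firing (17 genes, median -0.07) held Cdt1, which loads the MCM ring, at 0.85 (0.15 to 1.59), Mcm10 at 0.83 (0.28 to 1.40) and the kinase activator Dbf4 at -0.76 (-1.17 to -0.36). The replication fork list (20 genes, 0.06, or -0.25 with total counts) held Fen1, the nuclease that trims Okazaki fragments, at -1.19 (-1.64 to -0.75), with Rfc3 at 0.72 and Dut at 0.67. Genes of replication thus lay on either side of 0 outside the MCM ring as well.

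Genes that control transcription in the cycle (the Rb, E2F and MuvB list, 19 genes, median -0.25) had 11 intervals below 0 and 5 above, where all genes gave 30.5% and 31.5%. Foxm1 and Mybl2, which drive late genes, were at -0.94 (-1.76 to -0.17) and -1.0 (-1.91 to -0.16), with 97 and 41 and with 84 and 34 counts. E2f3, with 487 and 769 counts, was at 0.96. The list of G2 checkpoint kinases and phosphatases (7 genes, -0.43) held Pkmyt1 at -1.09 and Wee1, which restrains CDK1, at -0.86 (-1.15 to -0.58), and Cdc25a at 0.47 (0.22 to 0.73).

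Kinetochore, spindle and cytokinesis genes outside the first group were again mostly within counting error. The kinetochore and the spindle lists had median mean normalised counts of 38.2 and 61.5, against 696 over all genes. Weak genes have wide intervals. Over all genes 5780 of 15212 intervals held 0. Of 11 kinetochore and spindle checkpoint genes (median 0.02, or -0.28 with total counts), 9 had an interval that held 0, with Ttk at 2.86 (1.41 to 4.93) from 8 and 50 counts and Mad2l1 at 0.47 as the exceptions. Spindle and cytokinesis genes (14 genes) had a median of 0.29, or -0.02 with total counts, and 9 intervals held 0. Among the others were Tpx2 at -0.86, Racgap1 at 0.70 and Nusap1 at 0.68. Condensin and cohesion genes (8 genes, 0.07, or -0.23 with total counts) were spread widest, and 3 of 8 intervals held 0. This count was near the share over all genes. The separase gene Espl1 was at -2.61 (-4.36 to -1.32) from 78 and 10 counts, the condensin subunit Ncapg at 2.19 (0.90 to 3.82) from 12 and 46, and Ncapd2 at -1.27 (-1.50 to -1.05) from 1296 and 437. Of 4 regulators of the anaphase-promoting complex (-0.24), 2 had an interval that held 0. The others were Ube2s at 1.05 (0.77 to 1.34) and the inhibitor Fbxo5 at -0.81.

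Other inhibitors and p53 targets ranged widely, from values as near 0 as Cdkn1a, such as Ccng1 at -0.02 (-0.08 to 0.03), a gene chosen after its values were seen, to differences past 2-fold. Cdkn1c, the imprinted gene of the p57 inhibitor, had 4556 and 1447 counts and a log2 ratio of -1.35 (-1.48 to -1.23), while Cdkn2b (p15) was at 2.56 (1.49 to 3.91) from 16 and 79 counts and Cdkn2d (p19Ink4d) at -0.78. The p53 list (18 genes, median 0.12, or -0.18 with total counts) held Trp53inp1 at -1.69 (-1.79 to -1.58), Eda2r at -1.58 (-2.11 to -1.08) and Plk3 at 1.26 (0.99 to 1.53). Known targets of p53 thus lay far apart in the same pair of libraries.

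**Figure D5:**
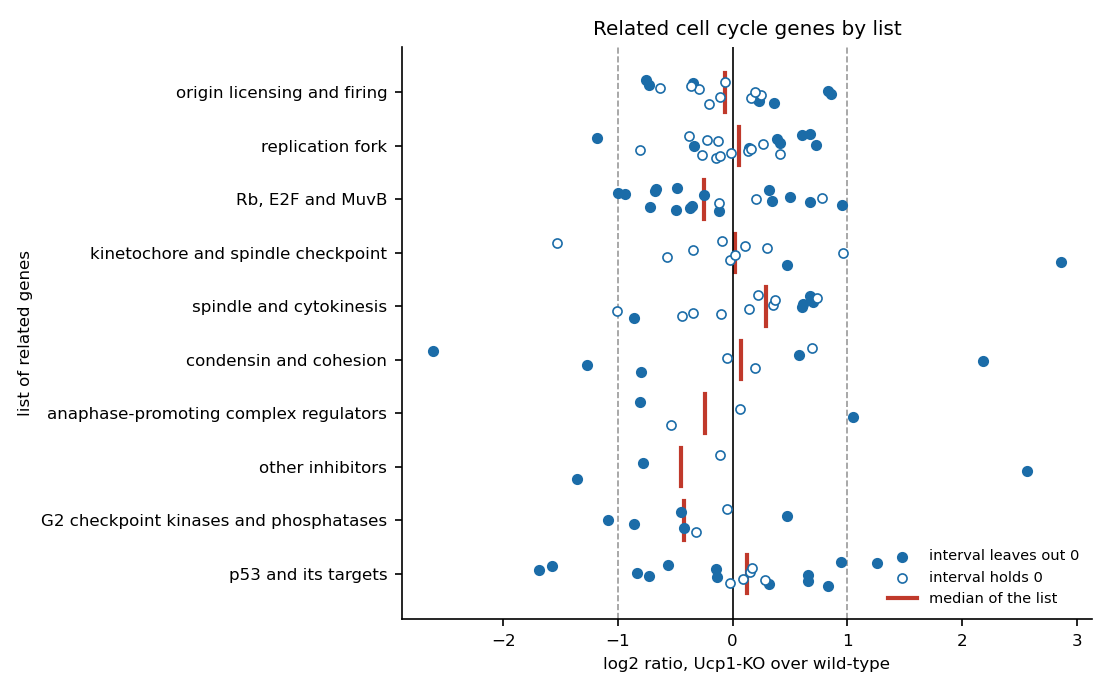
Log2 ratio (x axis) of 122 related genes in 10 lists (y axis), as filled points where the counting interval leaves out 0 and open points where it holds 0, with the median of each list as a red line. The list medians run from -0.45 (other inhibitors) to 0.29 (spindle and cytokinesis), and Ttk, Espl1, Cdkn2b and Ncapg lie farthest out.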

How the data were processed

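Poly(A)-enriched, directional RNA libraries of iBAT were sequenced, 1 per genotype. The authors deposited whole-number, not normalised counts per Entrez gene from featureCounts. The submitters' processing notes name Trim Galore, HISAT2 and build mm39. Annotation, strand setting and treatment of reads with several matches are not given in the sources used here, so antisense, overlapping and copied genes are uncertain. Genes without a symbol (1319 of 27179) held 0.156% and 0.121% of counts and were kept.

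Size factors were the median of ratios (DESeq2 1.42.0, R 4.3.3), and a gene was examined if its normalised counts averaged 10 or more. Among genes with 1 to 10 counts, 70.7% and 73.4% were even, so intervals (Poisson, Clopper-Pearson; scipy 1.17.1) were computed on read pairs, counts divided by 2. A floor of 3 pairs gave the CPM stated for a count of 0 and did not enter the intervals. The intervals cover counting error only, as reads are not independent molecules. Scripts were tested on simulated data. Positions and canonical transcript lengths came from GENCODE M39, joined by symbol. Named were all 38 genes and, per related list, up to 3 with the largest ratio whose interval leaves out 0. Members and lists were chosen with earlier results of these data known. Alternatives were TMM (edgeR 4.0.16), total counts with and without mitochondrially encoded genes, muscle markers and Ucp1, filters, a pseudocount of 5, a log2 size rule of 1.5, intervals on single counts and sums.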

Additional observations from a re-analysis of the deposited data

How the results depend on the processing

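No paired analysis was possible because there is 1 library for each genotype, and leaving one out leaves no comparison. Of 85 recomputed values of the main results 66 stayed within a set limit. The limit was the counting interval for Ucp1 and 1.5 times for a count of genes. For a group median it was the median of its genes' interval ends, a wide limit that is not the counting error of the median. Medians that changed sign with total counts could thus stay within it, as for mitosis genes (0.13 to -0.17) and CDKs (0.09 to -0.22). Total counts shifted all genes by about -0.31. Under them Ucp1 was at -3.28, the median of the inhibitors at -0.41 and Cdkn2c at -0.19, the 1 gene of the group beyond counting error that changed sign. They gave 0 genes of the group at least 2-fold higher, 7 at least 2-fold lower, 1 with an interval above 0 and 20 below, and 732 and 2320 of all genes higher and lower. Total counts without mitochondrially encoded genes, muscle markers and Ucp1 left all 37 genes of the group within their intervals and put Ucp1 at -3.01. With these reduced totals, and also with TMM, 3 genes of the group had an interval above 0 and 13 below, against 4 and 12 in the main results.

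Without a filter 2187 of all genes were higher and 2844 lower. A minimum mean of 50 left 617 and 811 and removed Bub1, leaving 0 higher genes in the group. A log2 size rule of 1.5 left 603 and 796 of all genes, and 0 higher and 1 lower (Mcm5) of the group. A pseudocount of 5 also left 0 higher. Depth limits the late mitotic genes and cyclins, whose intervals are wide.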
